A study of Mus musculus with 12 samples.

Results

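The 10 genes described here encode the enzymes that make and break down prostaglandins, and they were taken by name from the 21896 protein-coding genes of the mouse RefSeq annotation. A peak was assigned to a gene where it overlapped the gene's mm10 span extended by 1 kb on either side. This gave 113 of the 274593 peaks in the deposited table, 86 from the peak caller SEACR and 27 from the peak caller MACS2. The peaks come from CUT&RUN, a method that profiles histone marks by cutting out the DNA bound by an antibody with a tethered nuclease. Mouse intestinal organoids, grown in Matrigel from isolated crypts, were kept for 6 days with vehicle or with arachidonic acid (AA) at 25 µM. All groups shared a medium with EGF, Noggin, R-spondin, N-acetyl-L-cysteine, the GSK3 inhibitor CHIR-99021, the ROCK inhibitor Y-27632, B27 and N2. The labels of the 12 libraries give no genotype, strain or age, whereas the series as a whole is described as using Ptger KO organoids, with a dimethyl PGE2 arm, so the genotype of these libraries is uncertain and that arm was not analysed here. Each of the 3 marks, H3K4me3, H3K27ac and H3K27me3, was profiled in 2 vehicle and 2 AA libraries. Whether a group's libraries stem from different cultures or animals is not labelled, so a p-value here measures only the spread between libraries, which may be technical.

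Arachidonic acid, once released from membranes, is oxidised by the cyclooxygenases Ptgs1 and Ptgs2 to PGH2, the common precursor of all prostanoids. Terminal synthases turn PGH2 into PGE2 (Ptges, Ptges2, Ptges3), PGD2 (Ptgds, Hpgds), prostacyclin (Ptgis) or thromboxane A2 (Tbxas1), and Hpgd oxidises prostaglandins to inactive forms. In the gut, PGE2 acts on the epithelium and is made largely by stromal and immune cells, while tuft cells are the epithelial cells best known for prostanoid synthesis. H3K4me3 marks active promoters, H3K27ac active promoters and enhancers, and H3K27me3 is laid down by Polycomb repressive complex 2 on silent or weakly used genes.

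The values are peak scores, which behave as the average coverage of a peak's bases times a constant of the library, and they can therefore be compared between peaks of different length. The median H3K4me3 peak had a raw coverage of 3.38 and 2.35 fragments per base in vehicle and 1.37 and 1.46 in AA, so the AA group was the shallower one. For H3K27ac this depth was 1.95 to 2.76, and for H3K27me3 1.19 to 1.85. AA replicate 2 of H3K4me3 separated from the rest of its mark: its first principal component value was 157.1, while the others had -71.2 to -26.2 (48.5% of the variance). Spearman rank correlations over SEACR peaks were 0.81 (vehicle) and 0.72 (AA) within groups for H3K4me3, and 0.51 and 0.65 for H3K27ac. For H3K27me3 they were 0.19 and 0.29, with 0.12 to 0.23 between groups, so its libraries agreed little in rank. H3K4me3 start peaks were present at 8 of 8 intestinal epithelial markers, including Epcam, Vil1 and Cdx2. No H3K27ac start peak was found at any of 7 fibroblast, 7 blood cell and 4 endothelial markers. H3K4me3 start peaks were found there at Col1a1, Pdgfra, Twist1, Kit, Kdr and Tek, and the defining markers Col3a1, Ptprc and Pecam1 had none. In bulk libraries, fewer cells of a type and less signal per cell cannot be told apart.

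The enzyme genes fell into groups by the marks they carried. Ptges2, Ptges3, Hpgd and Tbxas1 had both H3K4me3 and H3K27ac within 1 kb of the transcription start. At Tbxas1 this rested on wide SEACR peaks, from -555 to 6227 for H3K4me3 and from -2450 to 6198 for H3K27ac. MACS2 had no peak of either mark within 1 kb of that start, and no H3K27ac peak at Ptges3. Ptgs2 and Hpgds had weak H3K4me3 peaks within 1 kb of the start, higher in AA at Ptgs2, and no H3K27ac peak. Short H3K27me3 peaks at the starts of Ptgs2 and Ptges2 rested on vehicle replicate 1. Its raw coverage there was 2.18 and 3.48 fragments per base, against 0.66 to 1.04 in the other libraries. MACS2 had no H3K27me3 peak at either gene. Ptgs1 and Ptges had H3K27me3 at the start and no H3K4me3 or H3K27ac peak there, and Ptgis had H3K27me3 inside the gene. Ptgds, the lipocalin-type PGD2 synthase, had no peak of any mark from either caller. In all, 6 of the 10 genes had an H3K4me3 start peak, against 66.1% of 17273 coding genes with a known start. For H3K27ac it was 4 of 10 against 53.6%, and for H3K27me3 4 of 10, with Ptgs2 and Ptges2 among them, against 29.9%. For Ptgis the start is not known here.

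**Figure D1:**
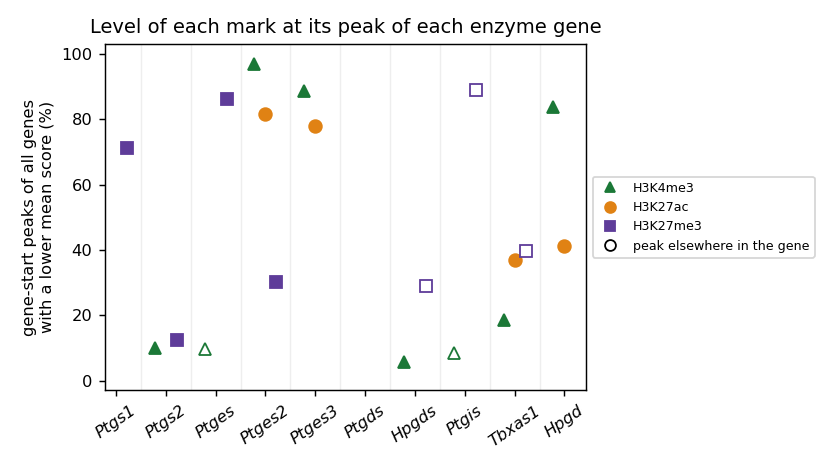
Level of each mark at its peak of each enzyme gene, as the percentage of gene-start peaks of all genes with a lower mean score over the 4 libraries (vertical axis, %). Filled symbols are peaks within 1 kb of the start, open symbols the strongest peak elsewhere in the gene where there is none at the start, and Ptgds has no peak. H3K4me3 at Ptges2, Ptges3 and Hpgd lies above 96.9%, 88.5% and 83.6% of gene-start peaks, while H3K27me3 is high at Ptges (86.2%) and Ptgis (89.0%).

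Upstream sequences are shown for 4 genes that differ in these marks: Ptgs2 and Ptges2, where H3K4me3 rose with AA, Ptges, which lies under H3K27me3, and Tbxas1, whose start had lower H3K4me3 values in AA. Each is the 250 bases before the transcription start, 5′ to 3′, from RefSeq on GRCm38.p6. Capitals mark a match, on either strand, to one of 11 motifs searched for.

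Ptgs2 (chr1:150099781-150100030, plus strand): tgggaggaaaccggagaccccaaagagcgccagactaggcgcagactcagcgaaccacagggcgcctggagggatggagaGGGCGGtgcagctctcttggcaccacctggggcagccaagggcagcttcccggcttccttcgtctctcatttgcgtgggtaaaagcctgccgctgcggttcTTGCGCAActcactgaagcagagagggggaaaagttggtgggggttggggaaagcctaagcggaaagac
Ptges2 (chr2:32395640-32395889, plus strand): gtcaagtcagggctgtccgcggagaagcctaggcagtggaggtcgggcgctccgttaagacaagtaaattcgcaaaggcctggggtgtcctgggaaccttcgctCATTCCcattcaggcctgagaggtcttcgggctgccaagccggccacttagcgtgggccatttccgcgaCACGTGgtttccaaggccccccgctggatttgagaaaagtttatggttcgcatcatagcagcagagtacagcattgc
Ptges (chr2:30903298-30903547, minus strand): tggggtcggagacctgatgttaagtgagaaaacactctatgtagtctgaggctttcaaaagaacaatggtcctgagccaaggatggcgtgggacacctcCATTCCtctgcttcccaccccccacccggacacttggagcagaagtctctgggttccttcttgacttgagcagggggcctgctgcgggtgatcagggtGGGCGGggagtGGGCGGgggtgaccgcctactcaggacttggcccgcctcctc
Tbxas1 (chr6:38918736-38918985, plus strand): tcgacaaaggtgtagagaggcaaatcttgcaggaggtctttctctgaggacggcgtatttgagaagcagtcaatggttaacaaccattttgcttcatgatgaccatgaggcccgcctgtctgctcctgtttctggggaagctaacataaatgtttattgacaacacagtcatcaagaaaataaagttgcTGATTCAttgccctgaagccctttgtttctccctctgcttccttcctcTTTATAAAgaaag

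The TATA box was searched as TATAAA. The other motifs were TGACGTCA and CGTCA (cAMP response element and its core, which overlap), CACGTG (E-box), GGGCGG (GC box), TGANTCA (AP-1), GGAATG (TEAD), TTGCGCAA (C/EBP), a pair of kappa B forms and the nuclear receptor motif DR1. They were counted over windows from 250 bases before to 50 after the start, on both strands. The Ptgs2 sequence holds a GC box from -170 and the C/EBP letters from -69 to -62, which occur in 0.183% of 32851 such windows. CGTCA at 13 and CACGTG at 16 bases after its start overlap by 2 bases. Ptges2 has CACGTG from -77, found in 7.15% of windows, and GGAATG on the opposite strand from -146, found in 14.7%. Ptges has GC boxes from -53 and -42, a motif of 35.7% of windows, and GGAATG on the opposite strand from -151. Tbxas1 has TATAAA from -11, which overlaps a match on the opposite strand from -13 (13.6% of windows), and TGATTCA from -61 (AP-1, 7.81%). A match describes letters only and shows no bound factor.

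H3K4me3 rose with AA at the start of the inducible cyclooxygenase gene Ptgs2 and of the PGE2 synthase gene Ptges2. With the deposited scaling and all 4 libraries, no H3K4me3 peak of the 10 genes was called lower. These were 2 of 34 SEACR peaks at 8 genes (5.88%), where limma, at a threshold of 0.05 on the adjusted p, called 2.92% of all 58548 peaks. Of all peaks, 1.54% were called higher and 1.38% lower. Both calls were among the 6 start peaks, and of the start peaks of all genes 6.61% were called, 5.38% higher. The groups did not overlap at 3 of the 6 with AA higher (52.2% of all gene-start peaks) and at 2 with AA lower (13% of all gene-start peaks). Over the 34 peaks, there was no overlap at 8 with AA higher (18.3% of all peaks) and at 11 with AA lower (30.5% of all). The median log2 change over the 34 peaks was -0.18, against -0.19 over all peaks. MACS2 peaks, scored in the same 4 libraries, gave the same 2 genes, 2 of 22 peaks, with 6.3% of all MACS2 peaks called. Both were start peaks, and of the MACS2 start peaks of all genes 10.3% were called, 9.86% higher.

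Peaks of the members were called lower under other settings. Quantile normalization gave 1, chr6:38880937-38883918 in the Tbxas1 span upstream of its start, with scores of 0.841 and 0.739 in vehicle and 0.698 and 0.558 in AA (-0.49, limma adjusted p = 0.00155). Without AA replicate 1 there were 3, namely that peak (limma adjusted p = 0.0022), the Tbxas1 start (0.0115) and a weak peak inside Ptges (0.0233), and without AA replicate 2 the Ptges peak alone (0.0256). The direction of the H3K4me3 calls over all peaks also depended on the scaling. With the deposited scaling 52.9% of the H3K4me3 calls over all peaks were higher. With libraries centred on their median this was 91.0%, and with quantile normalization 41.4%. Centring moved every H3K4me3 change by 0.21 on the log2 scale, and every H3K27me3 change by -0.11.

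Ptgs2, the cyclooxygenase induced by growth factors and inflammation, had 1 H3K4me3 peak, at chr1:150098116-150101013, from position -1915 to 982 relative to the start. Its score was 0.0919 and 0.0709 in vehicle and 0.327 and 0.245 in AA. Both AA libraries thus lay above both vehicle libraries, by more than the spread within either group. The log2 change was 1.54 ± 0.43 (SE, limma adjusted p = 0.0213). The raw coverage behind the 4 scores was 1.79, 0.93, 3.01 and 2.41 fragments per base, so the AA libraries had more fragments here although they were the shallower ones. The narrower MACS2 peak had scores of 0.19 and 0.118 in vehicle and 0.883 and 0.571 in AA (log2 change 1.48 ± 0.43 SE, limma adjusted p = 0.0369). Averaged over the 4 libraries the peak was weak, with 9.92% of gene-start peaks below it. The opposite-strand lncRNA gene Ptgs2os starts 157 bases upstream inside the same peak, so the signal of the 2 starts cannot be told apart. A short H3K27me3 peak just upstream had scores of 0.127 and 0.0619 in vehicle and 0.0621 and 0.0624 in AA, with vehicle replicate 1 alone above the other libraries (-0.37 ± 0.68 SE, limma adjusted p = 0.902).

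The limma call at Ptgs2 was kept without AA replicate 2 (1.73, adjusted p = 0.012), with centring (1.75, adjusted p = 0.0016) and with quantile normalization (1.83, adjusted p = 0.00356). It was lost without vehicle replicate 1 (adjusted p = 0.686), vehicle replicate 2 (0.884) or AA replicate 1 (0.0979), although the change stayed between 1.35 and 1.73 in the 4 fits that left out 1 library. Without vehicle replicate 1 or 2, limma called 36 and 32 of all H3K4me3 peaks, so nearly all calls of the mark were lost there.

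Ptgs1, the constitutive cyclooxygenase, had no H3K4me3 and no H3K27ac peak. Its H3K27me3 start peak, chr2:36229914-36232525, scored 0.189 and 0.194 in vehicle and 0.155 and 0.194 in AA. The groups overlapped, with a log2 change of -0.12 ± 0.22 (SE, limma adjusted p = 0.905). This start carried more H3K27me3 than 71.2% of gene-start peaks of the mark. An H3K4me3 peak was thus found at the start of Ptgs2 and not at that of Ptgs1. Each peak was scored in all libraries of its mark, and the Ptgs2 peak was weak in vehicle (0.0919 and 0.0709). Whether the 2 genes differ in vehicle alone was not tested.

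Ptges2, a membrane-associated PGE2 synthase, had the highest H3K4me3 of the 10 genes, above 96.9% of gene-start peaks. The peak at chr2:32394275-32399266 scored 1.09 and 1.00 in vehicle and 1.43 and 1.44 in AA. Both AA libraries lay above both vehicle libraries, with a log2 change of 0.45 ± 0.13 (SE, limma adjusted p = 0.0311). The MACS2 peak scored 1.78 and 1.62 in vehicle and 2.47 and 2.49 in AA (0.51 ± 0.15 SE, limma adjusted p = 0.0412). H3K27ac at the same start was 0.313 and 0.319 in vehicle and 0.442 and 0.382 in AA, also without overlap (42.3% of H3K27ac gene-start peaks had AA higher without overlap), but did not pass (0.32 ± 0.16 SE, limma adjusted p = 0.657). The short H3K27me3 peak there scored 0.202 and 0.0743 in vehicle and 0.0977 and 0.0574 in AA, with overlapping groups (-0.55 ± 0.57 SE, limma adjusted p = 0.809).

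The Ptges2 change lay in the upper range of that at other strong peaks. When all peaks were sorted by level into 10 bins of equal size, the bin with the highest H3K4me3 had a median log2 change of 0.28, with a 90th percentile of 0.46. Quantile normalization, which removes such a shift, left 0.12 (limma adjusted p = 0.454), while centring gave 0.66 (adjusted p = 8.6e-05). The call was kept without AA replicate 2 (adjusted p = 4.37e-05) and lost without vehicle replicate 1 (0.839) or vehicle replicate 2 (0.884).

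Ptges3, the cytosolic PGE2 synthase that is also the Hsp90 co-chaperone p23, carried both active marks at its start. Its H3K4me3 peak, chr10:128057367-128063402, scored 0.957 and 0.942 in vehicle and 1.24 and 1.12 in AA. The groups did not overlap, but the log2 change of 0.30 ± 0.14 did not pass (SE, limma adjusted p = 0.257), and it was close to the median of 0.28 for peaks of that strength. It passed with centring (0.51, adjusted p = 0.00725) and without AA replicate 2 (0.37, adjusted p = 0.00216), while quantile normalization left 0.0084 (adjusted p = 0.984). H3K27ac scores were 0.334 and 0.277 in vehicle and 0.449 and 0.348 in AA (0.32 ± 0.17 SE, limma adjusted p = 0.671), again with both AA values above both vehicle values.

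**Figure D2:**
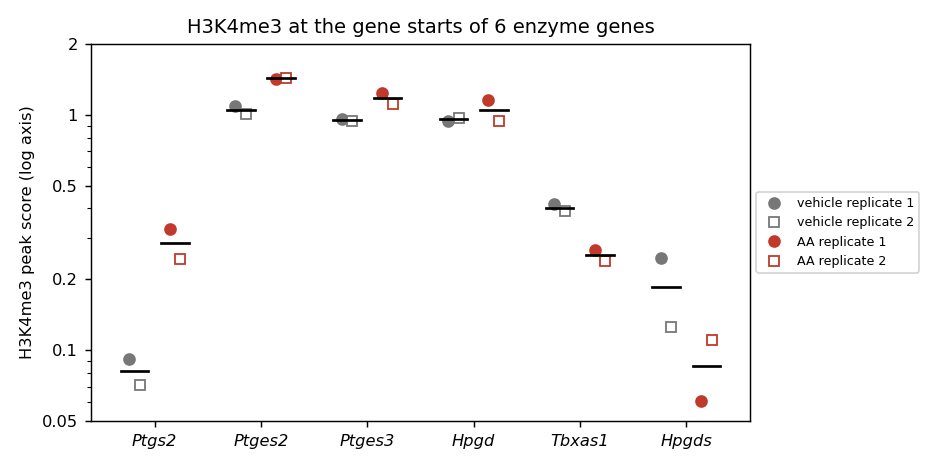
H3K4me3 peak score (log axis) at the start peak of the 6 enzyme genes that have one, for the 2 vehicle (grey) and 2 AA (red) libraries, with the group mean as a line. AA lies above vehicle without overlap at Ptgs2, Ptges2 and Ptges3 and below it at Tbxas1 and Hpgds, and only Ptgs2 and Ptges2 passed the test.

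Ptges, the inducible microsomal PGE2 synthase that is functionally coupled to Ptgs2, differed from the other PGE2 synthase genes in its marks. It had no H3K4me3 peak within 1 kb of its start, no H3K27ac peak, and 8 H3K27me3 peaks that covered 79.2% of the extended gene. The RefSeq span of Ptges, chr2:30889471-30931020, reaches upstream of the start used here, chr2:30903297. A start further upstream, if there is one, was not read. The mean H3K27me3 score weighted by peak length was 0.181 and 0.170 in vehicle and 0.247 and 0.258 in AA, so both AA libraries were higher over the gene as a whole. At the start peak, chr2:30897645-30906765, the scores were 0.195 and 0.21 in vehicle and 0.29 and 0.262 in AA (0.39 ± 0.15 SE, limma adjusted p = 0.341). Upstream, chr2:30907382-30919153 scored 0.197 and 0.165 in vehicle and 0.25 and 0.316 in AA (0.56 ± 0.16 SE, limma adjusted p = 0.11). Further upstream, chr2:30920636-30926883 scored 0.22 and 0.209 in vehicle and 0.333 and 0.283 in AA (0.46 ± 0.14 SE, limma adjusted p = 0.114). None of the 8 peaks passed, and the groups did not overlap at 4 of them, all with AA higher (26.3% of all H3K27me3 peaks). The highest of 10 bins of H3K27me3 peaks by level had a median change of 0.23, and with centring the 3 changes were 0.28, 0.45 and 0.35. With quantile normalization they were 0.16, 0.34 and 0.23.

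The lncRNA gene Gm52550 starts at chr2:30903255 on the opposite strand, within the Ptges start peak. The 3 H3K4me3 peaks inside the gene were weak. The one nearest to the start, centred 5981 bases after it, scored 0.253 and 0.245 in vehicle and 0.101 and 0.108 in AA (-1.07 ± 0.41 SE, limma adjusted p = 0.135), with no overlap between the groups. The strongest of the 3 lay at the upstream end of the RefSeq span and scored 0.137, 0.19, 0.3 and 0.0938, with no order between the groups.

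**Figure D3:**
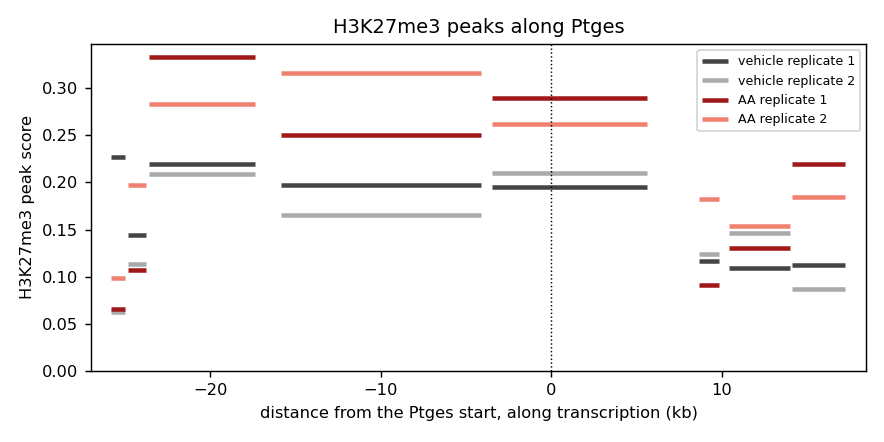
H3K27me3 peak score along Ptges against distance from its start in kb, in the direction of transcription; each bar spans 1 SEACR peak in 1 library (grey, vehicle; red, AA). Both AA libraries lie above both vehicle libraries at the 3 peaks that reach from the start upstream and at the peak past the gene's end, and no peak passed the test.

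Over all 10 genes, H3K27me3 had 29 peaks at 7 genes, and limma called 0 of them, with 0.545% of all 105301 peaks called. At an unadjusted p under 0.05 there were 8 of 29 (27.6%), against 9.39% of all peaks and 20.3% of gene-start peaks. That share rose with level over all peaks, from 2.16% in bin 1, the lowest of 10, to 28.9% in bin 10. The Ptges peaks among the 8 lay in bins 9 and 10 (16.2% and 28.9%), those of other genes in bins 5 to 7 (5.52% to 9.98%). MACS2 gave 0 calls among 1 peak, with 0.547% called. The groups did not overlap at 12 peaks with AA higher (26.3% of all peaks) and 1 with AA lower (13.4% of all). Those 12 lay at Tbxas1 (5), Ptges (4), Ptgis (2) and Ptgs1 (1). The median change of the 29 peaks was 0.16, against 0.12 for all peaks.

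Ptgis, the prostacyclin synthase, had 4 H3K27me3 peaks. The strongest, chr2:167237566-167243053, scored 0.226 and 0.27 in vehicle and 0.23 and 0.299 in AA, with overlapping groups (0.08 ± 0.14 SE, limma adjusted p = 0.896). It was the only H3K27me3 peak of the 10 genes also found by MACS2, which scored its centre 0.597 and 0.469 in vehicle and 0.784 and 0.829 in AA (0.53 ± 0.42 SE, limma adjusted p = 0.713). Its 2 H3K4me3 peaks were weak, the stronger one at 0.18 and 0.21 in vehicle and 0.145 and 0.124 in AA (-0.46 ± 0.42 SE, limma adjusted p = 0.599).

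Hpgds, the haematopoietic PGD2 synthase, which in the intestinal epithelium is known from tuft cells, had the weakest start peak of H3K4me3. At chr6:65144396-65145300 the scores were 0.245 and 0.126 in vehicle and 0.0609 and 0.11 in AA. Both AA values lay below both vehicle values, but the change did not pass (-0.91 ± 0.52 SE, limma adjusted p = 0.379). The MACS2 peak scored 0.44 and 0.269 in vehicle and 0.0343 and 0.0712 in AA (-1.25 ± 0.69 SE, limma adjusted p = 0.257). Only 5.77% of gene-start peaks were weaker. A short H3K27me3 peak inside the gene scored 0.0701 and 0.27 in vehicle and 0.0185 and 0.0658 in AA (-1.31 ± 0.68 SE, limma adjusted p = 0.551).

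Tbxas1, the thromboxane synthase, has the longest span of the 10 genes and the most peaks: 15 of H3K4me3, 12 of H3K27ac and 9 of H3K27me3. Its H3K4me3 start peak, chr6:38918431-38925213, reached from -555 to 6227 relative to the start, so most of it lay inside the gene. MACS2 peaks within it were centred 2489 and 5597 bases after the start. The start peak scored 0.418 and 0.388 in vehicle and 0.266 and 0.239 in AA. The groups did not overlap, and the change of -0.63 ± 0.28 had an unadjusted p of 0.026 and did not pass (SE, limma adjusted p = 0.226). It passed without AA replicate 1 (-0.70, adjusted p = 0.0115) and not without AA replicate 2 (-0.55, adjusted p = 0.0715). Centring gave -0.41 and quantile normalization -0.53, so the sign held under both. For peaks of that strength the median change was -0.21, with a 10th percentile of -0.76.

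H3K27ac at the Tbxas1 start did not follow, at 0.24 and 0.289 in vehicle and 0.304 and 0.227 in AA, with overlapping groups (-0.0022 ± 0.20 SE, limma adjusted p = 0.998). Of the 15 H3K4me3 peaks, the groups did not overlap at 6 with AA lower (30.5% of all peaks) and 2 with AA higher (18.3% of all). H3K27me3 weighted by peak length was 0.0815 and 0.0606 in vehicle and 0.145 and 0.126 in AA, with 5 of 9 peaks not overlapping and higher in AA (26.3% of all H3K27me3 peaks). These H3K27me3 peaks covered 5.18% of the gene, and none passed. The strongest H3K4me3 peak in the span, chr6:38868631-38878260, holds a start of Hipk2 (chr6:38876190, opposite strand), a kinase gene. It scored 0.83 and 0.775 in vehicle and 0.917 and 0.837 in AA (0.12 ± 0.16 SE, limma adjusted p = 0.717).

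**Figure D4:**
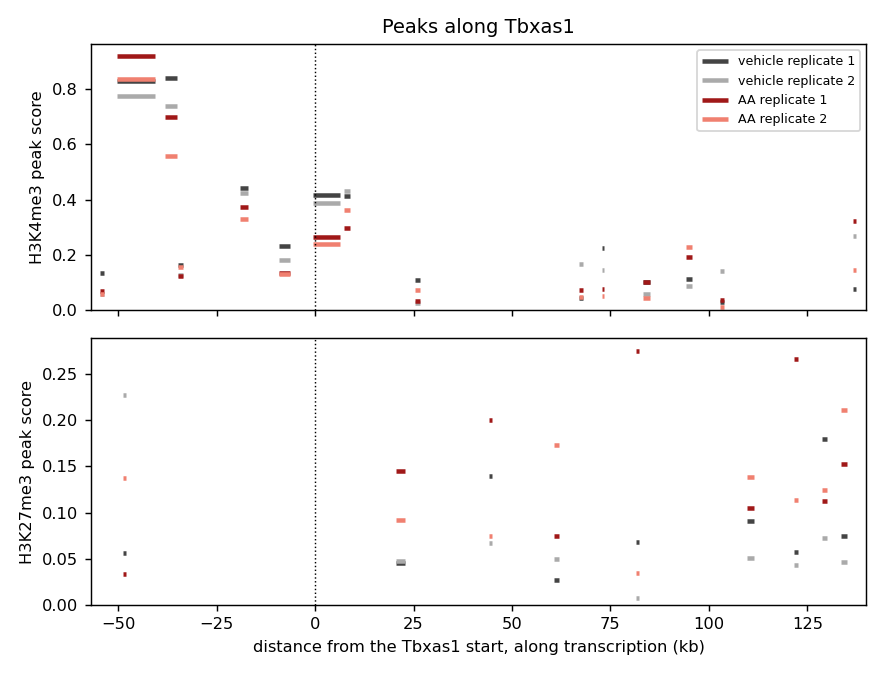
H3K4me3 (top) and H3K27me3 (bottom) peak scores along Tbxas1 against distance from its start in kb, in the direction of transcription; each bar spans 1 SEACR peak in 1 library (grey, vehicle; red, AA). At the start peak, which reaches into the gene, both AA libraries have lower H3K4me3 than both vehicle libraries. Both AA libraries lie above both vehicle libraries at 5 of the 9 H3K27me3 peaks (26.3% of all peaks of the mark). No peak passed the test.

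Ptgs1, Tbxas1 and Hpgds are known from tuft cells, and tuft cell markers were therefore read beside them. H3K4me3 at Pou2f3, the tuft cell regulator, was 0.251 and 0.341 in vehicle and 0.267 and 0.0647 in AA (-0.97 ± 0.36 SE, limma adjusted p = 0.116). The groups overlapped, and the lowest value was that of AA replicate 2. At Trpm5, a tuft cell channel gene, the start peak was 0.0697 and 0.103 in vehicle and 0.227 and 0.0363 in AA, with AA replicate 1 above both vehicle libraries. Of the 7 tuft markers named here, 4 had an H3K4me3 peak, with 0 called by limma and 1 at an unadjusted p under 0.05, and 6 had an H3K27me3 peak, with 1 called. The defining markers Dclk1, Avil, Gfi1b, Sh2d6 and Il25 had no H3K4me3 start peak. The H3K27me3 call was at Pou2f3, with 0.0948 and 0.107 in vehicle and 0.267 and 0.229 in AA (1.07 ± 0.28 SE, limma adjusted p = 0.0447). This call was lost in at least 1 fit that left out a library (adjusted p up to 0.623) and with centring (0.311), and 3.19% of all H3K27me3 gene-start peaks were called. Among 6 blood cell markers with an H3K27me3 peak 1 was called, Lyz2, at 0.117 and 0.0491 in vehicle and 0.219 and 0.346 in AA (1.48 ± 0.31 SE, limma adjusted p = 0.00551), with an adjusted p up to 0.483 without 1 library and 0.14 with centring. The part of tuft cells in the values at Tbxas1 and Hpgds was not tested.

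Hpgd, the 15-hydroxyprostaglandin dehydrogenase that begins prostaglandin breakdown, had strong H3K4me3 at its start, chr8:56292574-56297325. The scores were 0.945 and 0.972 in vehicle and 1.16 and 0.94 in AA. AA replicate 1 was the highest and AA replicate 2 the lowest of the 4, so the groups overlapped (0.12 ± 0.15 SE, limma adjusted p = 0.697). The change passed without AA replicate 2 (0.27, adjusted p = 0.047) and turned to -0.15 with quantile normalization. In H3K27ac, 6 peaks covered 59.5% of the extended gene, and the start peak scored 0.264 and 0.279 in vehicle and 0.286 and 0.266 in AA (0.02 ± 0.20 SE, limma adjusted p = 0.984). There was no H3K27me3 peak.

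H3K27ac had 23 SEACR peaks in all, at Tbxas1, Hpgd, Ptges3 and Ptges2. Limma called 0 of them, with 0.2% of all 62547 peaks called, and 0 had an unadjusted p under 0.05, against 7.71% of all. MACS2 gave 0 calls among 4 peaks, with 0% of all MACS2 peaks called. The groups did not overlap at 3 peaks with AA higher (28.5% of all peaks) and 5 with AA lower (10.7% of all). The median change was 0.02, against 0.11 over all peaks.

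Ordered by mean H3K4me3 score over the 4 libraries, the start peaks ran from Ptges2 (1.24) through Ptges3 (1.06), Hpgd (1.00), Tbxas1 (0.328) and Ptgs2 (0.184) to Hpgds (0.136). Ptges3 and Hpgd had no fixed order in vehicle, and Ptges3 lay above Hpgd in both AA libraries. Tbxas1 lay above Ptgs2 in both vehicle libraries and below it in both AA libraries, by little in AA replicate 2 (0.239 against 0.245). Ptgs2 was below Hpgds in both vehicle libraries and above it in both AA libraries.

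**Figure D5:**
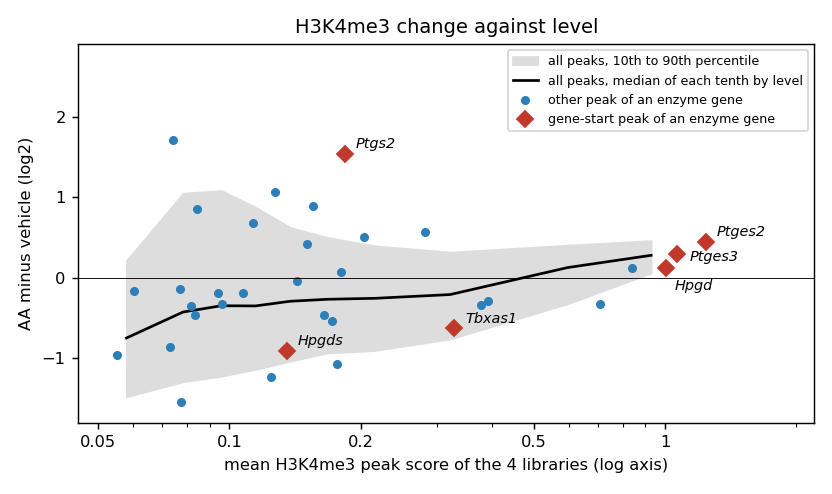
Log2 change in H3K4me3 (AA minus vehicle) against mean score over the 4 libraries (log axis) for the peaks of the enzyme genes (red, start peaks; blue, others), with the median and the 10th to 90th percentile of all peaks in each of 10 bins by level. Ptgs2 (1.54) lies above the band of peaks of its level, Ptges2 (0.45), Ptges3 (0.30) and Hpgd (0.12) lie beyond the level of the last median (0.928), and Tbxas1 and Hpgds lie within the band.

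Other genes of the pathway were read by 1 peak per gene. Of 11 prostanoid receptor and transport genes, 8 had an H3K4me3 peak, of which 0 rose and 2 fell, with a median change of -0.34. Of all gene-start peaks 5.38% were called higher and 1.23% lower, with a median change of 0.20 (-0.19 over all peaks). Most of these receptor and transport peaks were weaker than those, with group means of 0.324 or less outside Ptger4, Slco2a1 and Abcc4. In bins 5 to 8 of 10 by level, with median scores of 0.138 to 0.321, the median change of all peaks was -0.29 to -0.21. The PGE2 receptor gene Ptger2 went from 0.23 and 0.323 in vehicle to 0.0813 and 0.0947 in AA (-1.40 ± 0.42 SE, limma adjusted p = 0.0391). The PGD2 receptor gene Ptgdr went from 0.314 and 0.288 to 0.156 and 0.0785 (-1.25 ± 0.38 SE, limma adjusted p = 0.04), and with centring its adjusted p was 0.0572. Of 14 genes of arachidonate release and re-esterification, 12 had a peak. Mboat7, a lysophospholipid acyltransferase that prefers arachidonate, rose from 0.941 and 0.825 to 1.20 and 1.25 (0.47 ± 0.14 SE, limma adjusted p = 0.0434). A single peak shared by the secreted phospholipase genes Pla2g2a and Pla2g5 fell from 0.602 and 0.637 to 0.391 and 0.299 (-0.81 ± 0.23 SE, limma adjusted p = 0.0237), and with centring its adjusted p was 0.0731.

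Among 7 lipoxygenase and leukotriene genes with an H3K4me3 peak limma called 0, with 2 at an unadjusted p under 0.05 and a median change of -0.04. Among 7 other prostaglandin reductase genes it called 0, with 3 at an unadjusted p under 0.05 and a median change of 0.34. An unadjusted p under 0.05 was found at 31.7% of all gene-start peaks and 16.2% of all peaks. Among 8 regulators of cyclooxygenase, 1 rose, the AP-1 gene Fos, from 0.783 and 0.661 in vehicle to 1.12 and 1.02 in AA (0.56 ± 0.16 SE, limma adjusted p = 0.0238). The peaks of Fos and Mboat7 were strong. Over all H3K4me3 peaks, the highest of 10 bins by level had a median change of 0.28 and a 90th percentile of 0.46. In H3K27me3, the lipoxygenase gene Alox8 rose from 0.312 and 0.292 to 0.414 and 0.42 (0.43 ± 0.09 SE, limma adjusted p = 0.00395), the 1 call in these 5 lists, and with centring its adjusted p was 0.463. In H3K27ac limma called 0 peaks of the 5 lists, and 1 lipoxygenase or leukotriene gene and 2 regulators had an unadjusted p under 0.05. Every one of these pathway calls was lost in at least 1 fit that left out a library.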

How the data were processed

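The deposited signal is 1 peak score per peak and library, given by the authors for SEACR and MACS2 peaks on mm10, per the submitters' processing notes; for tool versions, aligner and scaling, nothing is stated in those sources. Multiplying score by peak length gave whole multiples of a library's step (tolerance 0.1 step) for 99.99% to 100% of small values, and score divided by step was used as raw coverage. Control rows were taken as vehicle. SEACR scores were tested with limma 3.58.1 in R 4.3.3 (trend, robust) on log2(score + pseudocount), 2 AA against 2 vehicle libraries, with Benjamini-Hochberg adjustment over all peaks of the mark and a 0.05 threshold. As pseudocount, the 5th percentile of positive scores was added (0.0253 for H3K4me3, 0.0693 for H3K27ac, 0.0329 for H3K27me3), so changes of weak peaks are understated. MACS2 peaks were fitted alike with their own pseudocounts (0.164, 0.281 and 0.0957). Tables were handled in Python 3.11.15 with pandas 2.3.3 and numpy 2.4.6. The fit was tested on simulated data, where in most draws more of its calls were false than the threshold states. A start peak is the strongest within 1 kb of the RefSeq start. All 10 genes were named whatever their values, with at most 4 called genes per pathway list and mark. Members and lists were chosen with earlier results of these data known. Alternatives were other pseudocounts, the stronger peaks only, centring, quantile normalization, limma without trend and robust, a threshold of 0.01, a replicate block and leaving out each library. One marker of the tuft cell list is not reported here.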

Additional observations from a re-analysis of the deposited data

How the results depend on the processing

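No H3K27ac or H3K27me3 peak of the 10 genes was called under any setting run. For H3K4me3, 2 peaks were called, 0 without trend and robust, 0 at a threshold of 0.01, and 0 to 6 when 1 library was left out. Start peaks alone gave 2, with quantile normalization 1, without trend and robust 0, at 0.01 0, and 0 to 4 without 1 library. Over all peaks, the 1710 H3K4me3 calls became 6106 with centring, 0 without trend and robust, 540 at 0.01 and 32 to 8903 without 1 library. The 125 H3K27ac calls became 0 in the stronger peaks, 0 without trend and robust, 0 with MACS2 peaks, 54 at 0.01 and 0 to 120 without 1 library. Of these, 77.6% were higher, 55.8% with quantile normalization and 17.1% (6 of 35) without AA replicate 2, where most were lower. The 574 H3K27me3 calls (91.3% higher) became 224 with 4 times the pseudocount, 79 with centring (59.5% higher), 164 with quantile normalization (51.2%), 0 without trend and robust, 10 with MACS2 peaks (10% higher), 253 at 0.01 and 44 to 90 without 1 library. The cause of these moves was not tested.

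Same-numbered libraries did not deviate together (r = -0.0023 for H3K4me3, 0.0085 for H3K27ac, 0.0025 for H3K27me3), so the numbers were not treated as pairs. A replicate block gave 2 member calls in H3K4me3 and 0 in the other marks, and 2522, 280 and 857 calls over all peaks of H3K4me3, H3K27ac and H3K27me3.

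Values of members that were not called changed sign in places. With centring these were H3K27ac at Hpgd (-0.055) and H3K27me3 at Ptgis (-0.030) and Tbxas1 (-0.10). With quantile normalization they were H3K27ac at Hpgd (-0.089), H3K27me3 at Ptgis (-0.14) and Tbxas1 (-0.16) and H3K4me3 at Hpgd (-0.15). With 4 times the pseudocount they were H3K27ac at Tbxas1 (3.62e-05) and H3K27me3 at Tbxas1 (-0.013). With MACS2 peaks the signs of H3K27ac (0.16) and H3K4me3 (0.29) at Tbxas1 differed, but these values are from other sites. MACS2 had no peak of either mark within 1 kb of the Tbxas1 start. The H3K27ac peak used is centred 94824 bases after the start, and the H3K4me3 peak used is the one at Hipk2. MACS2 H3K4me3 peaks inside the SEACR start peak, centred 2489 and 5597 bases after the start, changed by -0.43 and -0.087.
When 1 library was left out, the log2 change ran as follows: H3K27ac at Hpgd from -0.024 to 0.059, H3K27ac at Tbxas1 from -0.17 to 0.17, H3K27me3 at Ptges2 from -1.11 to 0.018, H3K27me3 at Ptgis from -0.088 to 0.25, H3K27me3 at Ptgs1 from -0.25 to 0.015, H3K27me3 at Ptgs2 from -0.75 to 0.0060, H3K27me3 at Tbxas1 from -0.49 to 0.52, H3K4me3 at Hpgd from -0.027 to 0.27 and H3K4me3 at Ptges from -0.65 to 0.80.
The calls at Ptgs2 and Ptges2 ended without trend and robust (limma adjusted p = 0.459 and 0.545). The Ptgs2 peak rests on 0.93 to 3.01 fragments per base in 4 libraries.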

Other observations

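The promoters of the 10 enzyme genes differed in base composition, which the choice of genes did not use. In the window from 250 bases before to 50 after the start, Ptges3 had 46 CpG dinucleotides, Ptges2 18, Ptgs2 16, Hpgd 12 and Ptges 10, against a median of 7 over 32851 RefSeq windows. Ptgs1 had 6, Hpgds 5, Tbxas1 4 and Ptgds 2. The 3 genes with the strongest H3K4me3 (Ptges2, Ptges3 and Hpgd) were all above the median, as were Ptgs2, with a weak peak, and Ptges, with none at its start. Ptgs1 and Ptgds, which had no H3K4me3 peak, were below it, but so were Tbxas1 and Hpgds, which had start peaks (mean scores 0.328 and 0.136). This is a description of 9 windows, with no test.

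Inside Tbxas1, a distal site centred 94919 bases after the start carried both active marks. H3K4me3 there scored 0.114 and 0.0891 in vehicle and 0.192 and 0.228 in AA (log2 change 0.90 ± 0.45 SE, limma adjusted p = 0.296), without overlap between the groups. H3K27ac scored 0.288 and 0.205 in vehicle and 0.307 and 0.281 in AA (0.21 ± 0.20 SE, limma adjusted p = 0.818), with overlap. Inside Hpgd, a site centred 10208 bases after the start had H3K4me3 scores of 0.192 and 0.251 in vehicle and 0.335 and 0.344 in AA (0.57 ± 0.31 SE, limma adjusted p = 0.337). H3K27ac over the same site was 0.37 and 0.216 in vehicle and 0.334 and 0.25 in AA (0.02 ± 0.19 SE, limma adjusted p = 0.982). These sites were chosen after their values were seen.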
